A study of Mus musculus with 9 samples.

Results

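The Bcl2 family decides whether the outer membrane of the mitochondrion stays closed or releases cytochrome c, the step that commits most cells to apoptosis. Anti-apoptotic members (Bcl2, Bcl2l1, which encodes Bcl-xL, and Mcl1) hold the pore-forming effectors Bax and Bak1 in check, and the BH3-only members (Bad, Bid, Bcl2l11 or Bim, Bbc3 or Puma, and Pmaip1 or Noxa) bind and neutralise the anti-apoptotic proteins or activate the effectors. Many of these proteins are also controlled after transcription, by phosphorylation, cleavage and degradation, which RNA levels do not show.

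These 10 genes, found by their symbols, were followed at the RNA level in mouse embryonic fibroblasts (MEFs) under hyperosmotic stress. They are 10 of the 35275 genes in the deposited table, and 9 of them, all but Pmaip1, had enough counts to be tested. The MEFs are described in the study as wild type and in the labels as of strain C57Bl/6, were grown in DMEM with fetal bovine serum, and are given no transgene or knockdown in the labels. The 3 groups of 3 libraries each were cells in iso-osmolar medium (the control, 300 mOsm), cells given 200 mM sucrose (500 mOsm, low-intensity stress) and cells given 300 mM sucrose (600 mOsm, high-intensity stress), the stressed cells for 3 h. Poly-A RNA was sequenced, and the labels do not say whether the libraries of a group came from separate cultures, so each p-value measures the spread between these libraries, which may be technical.

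Libraries held between 21716042 and 26740832 reads on genes, and 3 counts, taken as the smallest signal, corresponded to 0.112 to 0.138 CPM, a floor that covers counting error only. Their RNA fitted the fibroblast label in that 9 of 10 fibroblast markers were above 1 FPKM (counts scaled to gene length and library total) in every library, although Dcn, encoding decorin, was at 0 counts in the 3 control libraries. The summed FPKM of the fibroblast markers was 5500 to 5585 in control libraries, 5384 to 5640 in those at 500 mOsm and 6237 to 6296 in those at 600 mOsm. The 21 markers of epithelial, endothelial, leukocyte, muscle and pluripotent cells that were in the table summed to 6.78 to 7.44 FPKM in control, 11.1 to 11.9 FPKM at 500 mOsm and 6.96 to 7.52 FPKM at 600 mOsm. Of these 21 markers, the 5 at 0 in every control library were Epcam, Krt5, Kdr, Myog and Pou5f1, and Krt5 and Myog stayed at 0 in all 9. No leukocyte marker was at 0 in every control library. Others on these lists were not at 0, among them (chosen after their values were seen) Csf1r at 2.27 to 2.54 FPKM and Sox2 at 2.37 to 3.16 FPKM in control. The rise of the sum at 500 mOsm included Pecam1, with 4 to 11 counts in control, 265 to 314 at 500 mOsm and 31 to 53 at 600 mOsm, Cdh1, with 0 to 1, 86 to 91 and 1 to 4 counts, and Itgam, with 0 to 2, 35 to 61 and 3 to 5 counts. The part of these marker shifts in the results below was not tested, and in RNA from a whole dish fewer cells of a type cannot be told apart from less RNA per cell. One limit of these cells as a model of apoptosis came from Trp53, singled out after its values were seen. It encodes p53, a known activator of Bbc3, Pmaip1 and Bax transcription, and it had 0 to 2 counts in each of the 9 libraries, under the floor of 3 counts. Whether this low count comes from the cells or from the alignment, counting or annotation was not tested, and the labels give no p53 genotype.

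The response of the family was mixed in direction and differed between the intensities of stress. From iso-osmolar medium to 500 mOsm the largest change among the 9 tested members was a fall of the BH3-only gene Bbc3 to 0.375 times its level. Bcl2l1 fell less, and Bid rose by 0.20 on the log2 scale. Pmaip1, outside the main test, had 9 counts in all in control, 42 at 500 mOsm and 16 at 600 mOsm. At 600 mOsm a difference of Bbc3 from control was not detectable, while Bcl2l11 fell to 0.434, Bcl2 to 0.641 and Mcl1 to 0.684 times their control levels. Bad and Bid were higher there than in control, by 0.30 and 0.27 on the log2 scale. The effectors Bax and Bak1 did not pass the test against control at either intensity (0 of 2 genes by edgeR, by DESeq2, by limma and at an unadjusted p under 0.05). This depended on the setting. With a correction for transcript GC content and length, chosen after seeing the data, both passed as lower at 500 mOsm. The log2 fold changes were then -0.15 for Bax (edgeR adjusted p = 0.00768) and -0.26 for Bak1 (edgeR adjusted p = 0.00124).

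By edgeR's quasi-likelihood test over 13082 genes, with Benjamini-Hochberg adjustment and a threshold of 0.05, 6 of the 9 tested members differed between 600 and 500 mOsm, where 29.1% of all genes tested did. Of these, 3 were higher at 600 mOsm (Bcl2l1, Bak1 and Bbc3), against 11.9% of all genes, and 3 were lower (Bcl2, Mcl1 and Bcl2l11), against 17.2% of all genes. Between 500 mOsm and iso-osmolar medium, 3 of 9 members differed, against 28.0% of all genes: Bid was higher, where 13.2% of all genes were, and Bcl2l1 and Bbc3 were lower, where 14.8% of all genes were. Between 600 mOsm and iso-osmolar medium, 5 of 9 members differed, against 35.1% of all genes, with Bad and Bid higher (15.1% of all genes) and Bcl2, Mcl1 and Bcl2l11 lower (20.0% of all genes). The shares of members called, 66.7%, 33.3% and 55.6% in that order, rest on 9 genes. The median log2 fold change of the 9 members was 0.07, -0.08 and -0.09 in these comparisons, beside 0.01, 0.01 and 0.01 for all genes tested. Any pair of these comparisons shares 3 libraries, the control libraries in the case of both stresses against iso-osmolar medium, so they are not independent.

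**Figure D1:**
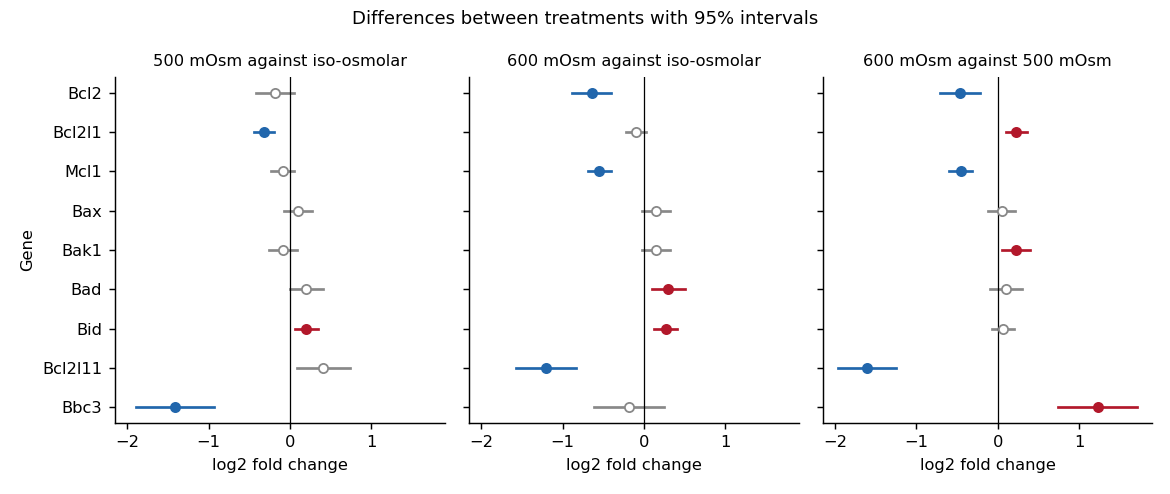
Log2 fold change of the 9 tested members (rows) in each comparison (panels), with points for the fitted value and lines for its 95% interval. Filled red and blue points mark genes higher and lower at an adjusted p under 0.05, and open grey points mark genes that did not pass. Bbc3 lies at -1.41 at 500 mOsm and Bcl2l11 at -1.20 at 600 mOsm, and both lie far from 0, on opposite sides, when 600 mOsm is set against 500 mOsm.

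The upstream sequences of the 4 members with the largest differences at either intensity are shown because Bcl2l11, Mcl1 and Bcl2 fell at 600 mOsm while Bbc3 fell at 500 mOsm. Each is the 250 bases before a RefSeq start site on GRCm38.p6 (the build also called mm10), given 5′ to 3′ on the gene's own strand. The start site nearest the deposited gene start was taken. Bcl2l11 has 2 start sites in the promoter set and Bbc3 has 3, and the others were not searched. Capitals mark the GC box GGGCGG, bound by Sp1, on either strand and, in Bcl2l11 alone of the 4, the forkhead core GTAAACA, which FoxO factors bind. The windows are chr2:128125788-128126037 (plus strand) for Bcl2l11, chr3:95658471-95658720 (plus strand) for Mcl1, chr1:106714291-106714540 (minus strand) for Bcl2 and chr7:16309333-16309582 (plus strand) for Bbc3.
Bcl2l11: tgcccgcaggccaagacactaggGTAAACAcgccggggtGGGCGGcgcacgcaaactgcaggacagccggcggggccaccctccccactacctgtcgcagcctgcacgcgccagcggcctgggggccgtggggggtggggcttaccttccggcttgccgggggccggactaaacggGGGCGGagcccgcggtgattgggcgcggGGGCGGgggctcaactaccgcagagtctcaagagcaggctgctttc
Mcl1: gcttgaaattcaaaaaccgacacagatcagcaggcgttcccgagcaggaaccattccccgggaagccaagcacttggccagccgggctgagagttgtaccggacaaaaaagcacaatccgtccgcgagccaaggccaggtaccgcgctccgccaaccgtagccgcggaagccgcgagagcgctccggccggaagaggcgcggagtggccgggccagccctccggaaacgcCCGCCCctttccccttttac
Bcl2: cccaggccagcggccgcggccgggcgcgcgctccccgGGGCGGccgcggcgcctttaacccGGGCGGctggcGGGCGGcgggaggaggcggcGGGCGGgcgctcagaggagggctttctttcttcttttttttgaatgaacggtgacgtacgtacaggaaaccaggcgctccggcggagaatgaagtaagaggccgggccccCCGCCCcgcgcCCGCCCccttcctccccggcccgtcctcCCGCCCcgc
Bbc3: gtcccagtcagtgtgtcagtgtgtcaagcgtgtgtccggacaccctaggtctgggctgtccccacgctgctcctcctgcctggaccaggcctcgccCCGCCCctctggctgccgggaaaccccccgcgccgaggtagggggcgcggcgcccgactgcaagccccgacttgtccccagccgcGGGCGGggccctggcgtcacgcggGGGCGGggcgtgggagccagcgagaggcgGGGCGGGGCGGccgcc

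All 4 are rich in CpG and lack a TATAAA box. The window holds 24 CpG in Bcl2l11, 26 in Mcl1, 36 in Bcl2 and 27 in Bbc3, against a median of 6 over the 32851 mouse promoters of the same length. GC boxes, present in 32.7% of those promoters, number 3 in Bcl2l11, 1 in Mcl1, 7 in Bcl2 and 5 in Bbc3, where the last pair shares 1 base. The forkhead core of Bcl2l11 begins 227 bases before its start site, and 3.17% of promoters hold this core. Upstream windows of 9 of the 10 members, at the start site chosen as above, were searched, and that of Pmaip1 was left out. Bcl2l1 and Bad have 3 and 2 start sites in the promoter set, and only the nearest was searched. TGGAAA, the core of the sites that TonEBP binds, was in none of these 9 windows (18.6% of promoters hold it). Likewise no member window held TGACGTCA (1.55% of promoters), TGATGCAA (0.791%) or TATAAA (12.4%), and CACGTG (6.02%) was found only in Bax. Sites of NF-κB family proteins were not searched. Matches of different motifs did not overlap, and a match or its absence here describes letters only, not binding.

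The order of levels, compared per gene length as FPKM, was almost the same in all 3 groups. Bax led, followed by Mcl1, Bak1, Bad, Bcl2l1 and Bid. The mean of Bax in control, 178 ± 8.05 FPKM (SD, n = 3), was above 96.9% of the genes tested, and Mcl1 at 84.0 ± 3.33 FPKM was above 92.5%. Bcl2 itself, the founding member, was low at 1.42 ± 0.0713 FPKM, above only 27.3% of genes tested. Its neighbours in rank were Bbc3 at 2.18 ± 0.401 FPKM and Bcl2l11 at 1.09 ± 0.108 FPKM, and Pmaip1 came last. The ranks moved only among the low genes: Bbc3 was 7th in control and at 600 mOsm but 9th at 500 mOsm, where Bcl2l11 took rank 7. Neighbours in rank whose libraries overlapped were Bak1 and Bad at both intensities of stress and Bcl2 and Bcl2l11 at 500 mOsm.

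**Figure D2:**
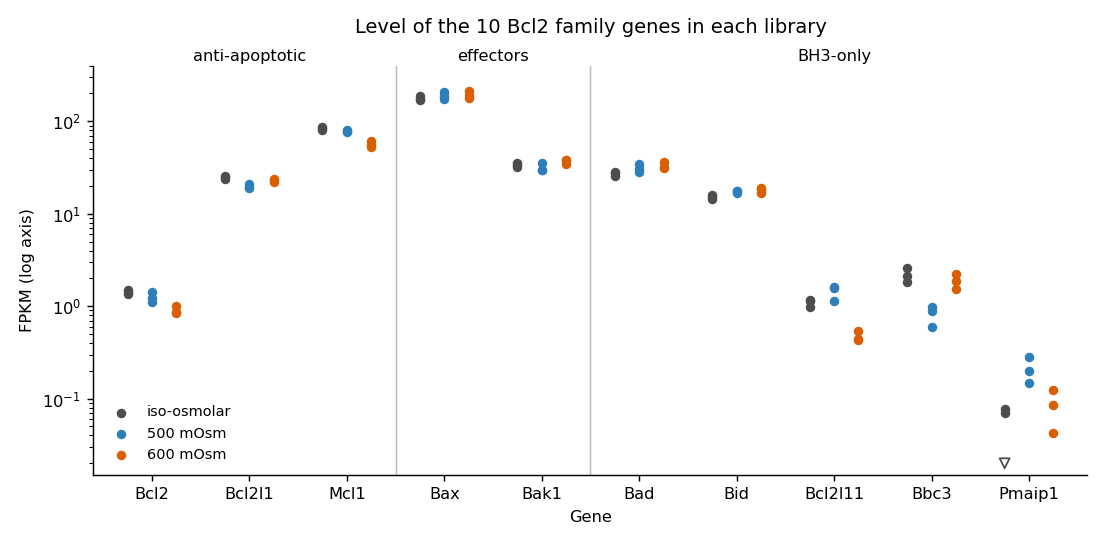
FPKM (log axis) of each of the 10 members in each of the 9 libraries, grouped by role, with grey points for iso-osmolar, blue for 500 mOsm and orange for 600 mOsm. An open triangle marks the control library with 0 counts of Pmaip1. Levels span from 211 FPKM for Bax to under 0.1 FPKM for Pmaip1, and the shifts of Bcl2l11 and Bbc3 stand out on this scale.

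Mcl1 encodes a short-lived anti-apoptotic protein that must be made continually. The gene lies on chromosome 3 from 95658721 to 95663176, plus strand, and was counted at 4114 to 7279 reads per library. Its level was 86.8, 84.9 and 80.3 FPKM in control, 80.9, 78.1 and 76.9 FPKM at 500 mOsm, and 54.8, 53.4 and 61.6 FPKM at 600 mOsm. Every 600 mOsm library was below every other library, while control and 500 mOsm overlapped. Mcl1 fell at 600 mOsm by 0.55 on the log2 scale against control (SE 0.06, edgeR adjusted p = 3.49e-05) and by 0.46 against 500 mOsm (SE 0.06, edgeR adjusted p = 0.000171). At 500 mOsm its log2 fold change was -0.09 (95% interval -0.23 to 0.05, edgeR adjusted p = 0.322).

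Bcl2 (chromosome 1, 106538178 to 106714274, minus strand) encodes the anti-apoptotic protein that gave the family its name. It had 146 to 260 counts per library. In FPKM its libraries stood at 1.35, 1.42 and 1.49 in control, 1.41, 1.12 and 1.23 at 500 mOsm, and 0.842, 0.994 and 0.869 at 600 mOsm. The 600 mOsm libraries were again below the other 6, and those of control and 500 mOsm overlapped. Bcl2 fell by 0.64 at 600 mOsm against control (SE 0.11, edgeR adjusted p = 0.00076) and by 0.46 against 500 mOsm (SE 0.11, edgeR adjusted p = 0.00781). The second of these calls did not hold under a composition correction, in which each library was adjusted for the GC content and length of the transcripts (log2 fold change -0.24, edgeR adjusted p = 0.0554), a setting chosen after seeing the data. At 500 mOsm against control the log2 fold change was -0.18 (SE 0.11, edgeR adjusted p = 0.248). An antisense gene, D630008O14Rik, shares 558 exon bases with Bcl2, and whether counting used strand is not given in the sources used here. Reads assigned to D630008O14Rik averaged 0.0409 CPM in control and 0.0137 CPM at 500 mOsm, beside 10.2 and 8.99 CPM for Bcl2.

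Bcl2l1, the third anti-apoptotic member (chromosome 2, 152780668 to 152831728, minus strand, 1199 to 1601 counts), responded to the lower intensity instead. Its libraries measured 23.9, 25.3 and 25.2 FPKM in control, 19.2, 20.8 and 19.4 FPKM at 500 mOsm, and 23.6, 23.0 and 22.3 FPKM at 600 mOsm. All 3 libraries at 500 mOsm were below the other 6, and the 600 mOsm libraries were all below control. On the TMM-scaled counts that the test uses, control and 600 mOsm overlapped. Bcl2l1 fell by 0.32 at 500 mOsm against control (SE 0.06, edgeR adjusted p = 0.000895) and was higher by 0.23 at 600 than at 500 mOsm (SE 0.06, edgeR adjusted p = 0.00964). At 600 mOsm against control its log2 fold change of -0.09 (95% interval -0.22 to 0.03) did not pass (edgeR adjusted p = 0.228), but under the composition correction it was -0.18 and passed (edgeR adjusted p = 0.0101).

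Summed over Bcl2, Bcl2l1 and Mcl1, anti-apoptotic RNA was 107 to 112 FPKM in control libraries, 97.5 to 102 FPKM in those at 500 mOsm and 77.3 to 84.8 FPKM in those at 600 mOsm, and no groups overlapped. Mcl1 made up 76.2% ± 1.22 of this sum in control, 78.9% ± 0.791 at 500 mOsm and 70.3% ± 2.06 at 600 mOsm (SD, n = 3 each). Bcl2 itself, at under 1.5 FPKM in every library, added little to it.

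**Figure D3:**
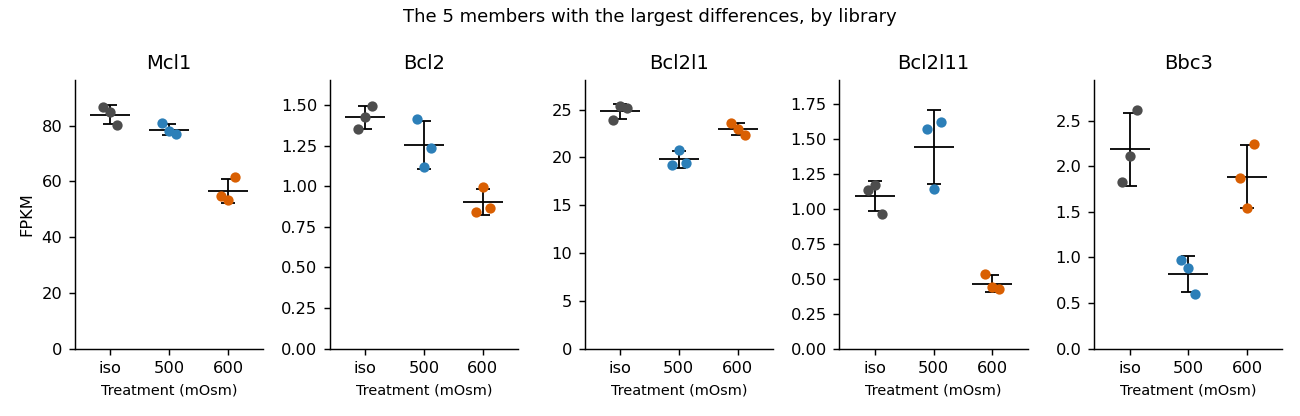
FPKM of the 5 members with the largest differences, 1 panel each with its own axis from 0, in iso-osmolar (iso), 500 and 600 mOsm libraries. Points are libraries, and bars are the mean and SD of 3. Mcl1, Bcl2 and Bcl2l11 are lowest at 600 mOsm, whereas Bcl2l1 and Bbc3 are lowest at 500 mOsm.

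Bax, the effector that moves from the cytosol to mitochondria in dying cells, was the most abundant member (chromosome 7, 45461695 to 45466898, minus strand, 3217 to 4862 counts). It stood at 170.5, 186 and 176 FPKM in control, 188, 205 and 176 FPKM at 500 mOsm, and 192, 179.8 and 211 FPKM at 600 mOsm. All groups overlapped. The log2 fold change was 0.10 at 500 mOsm (95% interval -0.07 to 0.27), 0.15 at 600 mOsm (-0.02 to 0.32) and 0.05 between 600 and 500 mOsm (-0.12 to 0.22), and the edgeR adjusted p-values were 0.398, 0.163 and 0.684. The sign of these differences depended on the setting. It turned between 600 and 500 mOsm without replicate 3 of either group (-0.01 and -0.03), and against control it turned under the composition correction, to -0.15 at 500 mOsm (edgeR adjusted p = 0.00768) and -0.09 at 600 mOsm. The predicted gene Gm45808 shares 192 exon bases with Bax on the same strand.

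Bak1, the effector that resides on the mitochondrial membrane (chromosome 17, 27019810 to 27029009, minus strand), had 1660 to 2390 counts. Its values were 32.0, 35.0 and 33.5 FPKM in control, 29.9, 35.1 and 29.7 FPKM at 500 mOsm, and 37.9, 34.2 and 37.7 FPKM at 600 mOsm. Replicate 2 of the 500 mOsm group was above replicate 2 of the 600 mOsm group, so these groups overlapped. Bak1 was higher by 0.23 at 600 than at 500 mOsm (SE 0.08, edgeR adjusted p = 0.0453), a call just under the threshold that was lost in 8 of 19 alternatives, among them leaving out replicate 1 or 3 at 500 mOsm (adjusted p = 0.151 and 0.150), replicate 1 or 3 at 600 mOsm (0.140 and 0.139) or control replicate 3 (0.0549). Against control the log2 fold changes were -0.08 at 500 mOsm (edgeR adjusted p = 0.497) and 0.15 at 600 mOsm (edgeR adjusted p = 0.169). The first became -0.26 and passed under the composition correction (edgeR adjusted p = 0.00124). Ggnbp1, whose exons overlap Bak1 on the opposite strand, was itself lower at 500 mOsm by 1.06 on the log2 scale (edgeR adjusted p = 0.00429). Its level was low beside that of Bak1. Ggnbp1 averaged 1.38 CPM in control, 0.657 at 500 mOsm and 0.983 at 600 mOsm, and Bak1 averaged 79.6, 75.2 and 88.2 CPM.

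Bcl2l11 encodes Bim, a BH3-only protein that binds all anti-apoptotic members. The gene (chromosome 2, 128126038 to 128162547, plus strand) gave 118 to 145 counts in control, 154 to 212 at 500 mOsm and 49 to 65 at 600 mOsm. In FPKM it read 1.13, 1.17 and 0.968 in control, 1.58, 1.14 and 1.63 at 500 mOsm, and 0.535, 0.440 and 0.426 at 600 mOsm. All 600 mOsm libraries were below the other 6, whereas 1 library at 500 mOsm, replicate 2, lay among the controls. Bcl2l11 fell by 1.20 at 600 mOsm against control (SE 0.17, edgeR adjusted p = 0.000162). Between 600 and 500 mOsm it fell by 1.61 (SE 0.16, edgeR adjusted p = 1.25e-05), to 0.327 times the 500 mOsm level, and this was the largest difference among the 9 tested members. At 500 mOsm its log2 fold change against control was 0.41 (SE 0.15, edgeR adjusted p = 0.0589), which did not pass. It passed in 3 of 19 alternatives, among them without replicate 2 at 500 mOsm, where it was 0.54 (edgeR adjusted p = 0.0123).

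Bbc3 encodes Puma, a BH3-only protein with the same broad range of partners, and moved the other way. The gene (chromosome 7, 16309616 to 16318205, plus strand) was counted 72 to 115 times per library in control, 28 to 43 times at 500 mOsm and 62 to 108 times at 600 mOsm. Its libraries stood at 1.83, 2.11 and 2.62 FPKM in control, 0.975, 0.886 and 0.596 FPKM at 500 mOsm, and 1.87, 1.55 and 2.24 FPKM at 600 mOsm. Each 500 mOsm library was below the other 6, and control and 600 mOsm overlapped. Bbc3 fell by 1.41 at 500 mOsm against control (SE 0.22, edgeR adjusted p = 0.000347) and was higher by 1.23 at 600 than at 500 mOsm (SE 0.22, edgeR adjusted p = 0.00128), a fold of 2.34. At 600 mOsm its log2 fold change against control was -0.19, with a 95% interval from -0.62 to 0.25 (edgeR adjusted p = 0.508). At this depth the interval left room for a fall of moderate size and for a smaller rise.

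Bid, a BH3-only protein that death receptor caspases cleave into its active form, was moderately expressed (chromosome 6, 120891930 to 120916853, minus strand, 829 to 1145 counts). It read 15.8, 15.2 and 14.5 FPKM in control, 16.9, 17.7 and 17.4 FPKM at 500 mOsm, and 18.6, 18.9 and 16.6 FPKM at 600 mOsm. Every stressed library was above every control library, and the stressed groups overlapped. Bid rose by 0.20 at 500 mOsm (SE 0.06, edgeR adjusted p = 0.0343) and by 0.27 at 600 mOsm (SE 0.06, edgeR adjusted p = 0.00642), with 0.07 between the intensities (edgeR adjusted p = 0.471). The call at 600 mOsm held in all 19 alternatives. That at 500 mOsm was lost in 7 of 19, including without control replicate 2 or 3 (edgeR adjusted p = 0.0672 and 0.149) and without replicate 2 or 3 at 500 mOsm (edgeR adjusted p = 0.133 and 0.0642).

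Bad is a BH3-only protein that survival kinases inactivate by phosphorylation (chromosome 19, 6941861 to 6951898, plus strand, 804 to 1392 counts). It had 25.5, 28.6 and 27.3 FPKM in control, 30.4, 34.4 and 28.5 FPKM at 500 mOsm, and 31.9, 30.9 and 36.1 FPKM at 600 mOsm. The 600 mOsm libraries were above all controls, and the 500 mOsm libraries overlapped both. Bad was higher by 0.30 at 600 mOsm against control (SE 0.09, edgeR adjusted p = 0.0225). This call was lost without control replicate 1 (edgeR adjusted p = 0.0851), control replicate 3 (0.0549) or 600 mOsm replicate 3 (0.105), and under the composition correction (log2 fold change 0.15, edgeR adjusted p = 0.0752). At 500 mOsm the log2 fold change was 0.20 (edgeR adjusted p = 0.131), near 0 under that correction, and between the intensities it was 0.10 (edgeR adjusted p = 0.444). Bid and Bad each share exon bases with a gene on the opposite strand, Bcl2l13 (628 bases) and Gpr137 (524 bases), and neither of these passed in any comparison.

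Pmaip1, which encodes Noxa, a BH3-only partner of Mcl1, was close to the limit of detection. It had 4, 0 and 5 counts in control, 18, 14 and 10 at 500 mOsm, and 8, 5 and 3 at 600 mOsm, or 9, 42 and 16 counts in all. The 500 mOsm libraries were above the other 6, and control and 600 mOsm overlapped. In an exact two-sided permutation test of the CPM, Pmaip1 gave p = 0.1 for 500 mOsm against control (n = 3 each), the smallest value that 3 against 3 libraries can give. The same exact test gave p = 0.1 between 600 and 500 mOsm and p = 0.4 for 600 mOsm against control. It was too low for the filter of the main test. Fitted without that filter, over 23419 genes, Pmaip1 had a log2 fold change of 2.04 at 500 mOsm against control (SE 0.58, edgeR adjusted p = 0.00309), a value that depends on how the 0 is handled, 0.79 at 600 mOsm (edgeR adjusted p = 0.481) and -1.25 between them (edgeR adjusted p = 0.0717).

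By role, the effector sum of Bax and Bak1 was 202 to 221 FPKM in control libraries, 206 to 240 FPKM in those at 500 mOsm and 214 to 248 FPKM in those at 600 mOsm, and all groups overlapped. The sum of the 5 BH3-only genes, which Bad and Bid dominate, was 44.4 to 47.1 FPKM in control, below the 48.3 to 54.3 FPKM at 500 mOsm and the 51.8 to 55.4 FPKM at 600 mOsm. From TMM-scaled counts divided by gene length the gap at 500 mOsm was narrow, with a control maximum of 47.4 and a 500 mOsm minimum of 47.6. The dependence of Bad and Bid at 500 mOsm on the setting, given above, applies to this sum as well. Bcl2l11 and Bbc3, which had the largest fold changes among the 9 tested members, added little to that sum. The ratio of Bax to Bcl2, often quoted as an index of readiness for apoptosis, was 126, 131 and 118 in control, 133, 184 and 143 at 500 mOsm, and 228, 181 and 242 at 600 mOsm. Every stressed library had a higher ratio than every control library, and the groups at 500 and 600 mOsm overlapped by 1 library. The lowest ratio at 500 mOsm, 133, was close to the highest in control, 131. Neither Bax nor Bcl2 passed at 500 mOsm against control. The ratio was taken without the composition correction, under which Bax turned lower at 500 mOsm. Bcl2l11 RNA amounted to 1.30% ± 0.0869 of Mcl1 RNA in control, 1.84% ± 0.337 at 500 mOsm and 0.830% ± 0.142 at 600 mOsm (FPKM, SD, n = 3 each), so relative to its partner it was lower at 600 mOsm although Mcl1 fell as well. These sums and ratios are descriptions and were given no test.

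**Figure D4:**
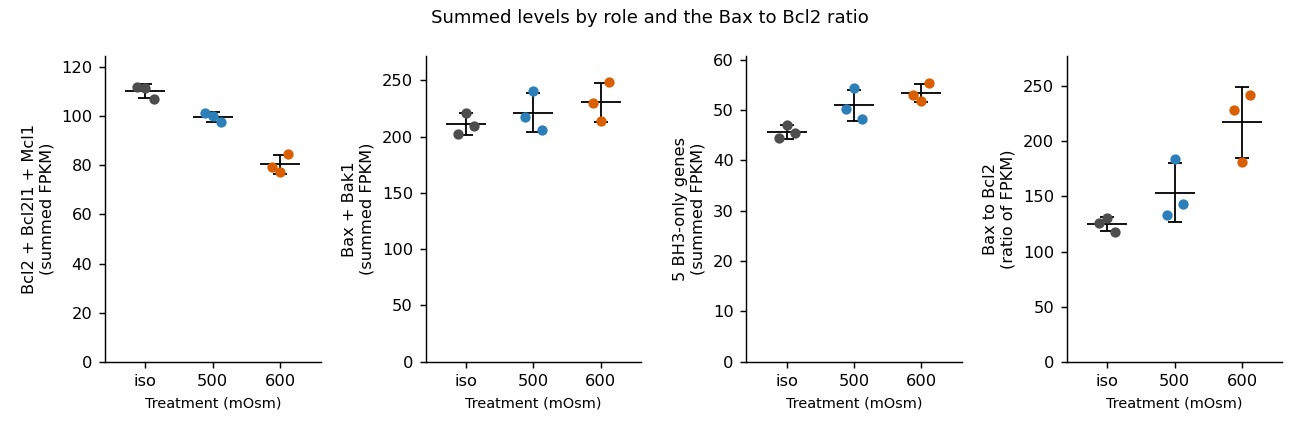
Summed FPKM of the anti-apoptotic, effector and BH3-only members and the ratio of Bax to Bcl2 (panels, axes from 0), in iso-osmolar (iso), 500 and 600 mOsm libraries. Points are libraries, and bars are the mean and SD of 3. The anti-apoptotic sum steps down without overlap from 107 to 112 FPKM in control to 77.3 to 84.8 FPKM at 600 mOsm, and the effector sums overlap.

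Members differed in base composition, which bears on the correction named above. The longest transcript had 46.3% GC in Bcl2, 48.0% in Bcl2l11 and 48.7% in Mcl1, the members that fell at 600 mOsm against control. It had 42.1% in Pmaip1, 51.3% in Bid, 55.9% in Bcl2l1, 57.1% in Bak1 and Bad, 63.5% in Bax and 65.2% in Bbc3. Of these, Bad and Bid were called higher at 600 mOsm than in control. A link between composition and direction was not tested. Within each group the library with the highest Bax was also the one with the highest Bad (replicate 2 in control and at 500 mOsm, replicate 3 at 600 mOsm). The falls of Bcl2l11 and Mcl1 at 600 mOsm and the fall of Bbc3 at 500 mOsm passed the test in all 19 alternatives, the correction included.

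Relatives of these genes also moved in both directions. Of 15 other Bcl2 family genes, 8 were tested, and the anti-apoptotic Bcl2l2, which encodes Bcl-w, was lower in all comparisons. It was at 6.56, 5.87 and 5.72 FPKM in control, 5.18, 5.29 and 4.97 FPKM at 500 mOsm, and 4.43, 4.19 and 4.15 FPKM at 600 mOsm, a descending order without overlap. Bcl2l2 fell by 0.49 at 600 mOsm against control (SE 0.08, edgeR adjusted p = 0.000426), by 0.23 at 500 mOsm (edgeR adjusted p = 0.0413) and by 0.26 between them (edgeR adjusted p = 0.0252), and the last 2 calls were weak. The call at 500 mOsm was lost in 12 of 19 alternatives, with adjusted p from 0.0513 to 0.157 without control replicate 1 or 2, 500 mOsm replicate 1 or 3 or 600 mOsm replicate 1, and the call between the intensities in 6 of 19, with adjusted p from 0.0615 to 0.0886 without replicate 1 or 2 at 500 mOsm or 2 or 3 at 600 mOsm. Bmf, a BH3-only gene, had 7, 3 and 3 counts in control, 18, 18 and 13 at 500 mOsm and 10, 20 and 14 at 600 mOsm. It was higher by 1.76 at 500 mOsm (edgeR adjusted p = 0.0119) and by 1.71 at 600 mOsm (edgeR adjusted p = 0.0138), calls lost without control replicate 2 (edgeR adjusted p = 0.0524 and 0.0547) or 3 (0.0519 and 0.0560), and the second also without 600 mOsm replicate 2 (0.0558). Bcl2l15 had 5 to 10 counts in control, 24 to 32 at 500 mOsm and 4 to 7 at 600 mOsm. It rose by 1.65 at 500 mOsm (edgeR adjusted p = 0.00154) and fell by 2.17 from 500 to 600 mOsm (edgeR adjusted p = 0.000396). The filter of the main test kept Bcl2l15 only through its 500 mOsm libraries and Bmf only through stressed libraries. Calls of these genes as higher there were thus favoured in advance.

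Of the 8 relatives tested, 1 was higher and 2 lower between 600 and 500 mOsm (each gene is 12.5% of the list, beside 11.9% and 17.2% of all genes tested). Against control 2 were higher and 2 lower at 500 mOsm (beside 13.2% and 14.8%) and 1 and 1 at 600 mOsm (beside 15.1% and 20.0%). Those higher were Bmf and Bcl2l15 at 500 mOsm and Bmf at 600 mOsm. Because the filter kept both only through stressed libraries, these counts of higher genes were partly set by the filter. The same holds for Bcl2l15 among the genes lower between 600 and 500 mOsm. The effector relative Bok was higher by 0.32 at 600 than at 500 mOsm (edgeR adjusted p = 0.0181), a call lost without replicate 3 of either group (edgeR adjusted p = 0.0708 and 0.0763). Bcl2l12 was lower by 0.95 at 500 mOsm (edgeR adjusted p = 0.0108), but not without control replicate 2 (edgeR adjusted p = 0.0548). The Bcl2a1 genes Bcl2a1a, Bcl2a1b and Bcl2a1d were at 0 counts in all libraries, and as near-identical copies they can lose reads to each other in counting.

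Downstream of the mitochondrion, all 18 genes of the apoptosome, the caspases and their inhibitors were tested. Between 600 and 500 mOsm 2 were higher and 1 lower (11.1% and 5.56%, beside 11.9% and 17.2% of all genes tested), and at 500 mOsm 1 was higher and 5 lower than in control (5.56% and 27.8%, beside 13.2% and 14.8%). At 600 mOsm against control 0 were higher and 3 lower (16.7%, beside 15.1% higher and 20.0% lower of all genes) by edgeR, DESeq2 and limma alike, with 3 higher and 4 lower at an unadjusted p under 0.05. Casp2, an initiator caspase, was like Bbc3 lowest at 500 mOsm, with 7.93, 6.99 and 6.71 FPKM in control, 3.99, 4.52 and 4.63 FPKM at 500 mOsm, and 6.88, 6.95 and 6.38 FPKM at 600 mOsm. Casp2 fell by 0.71 at 500 mOsm (SE 0.09, edgeR adjusted p = 4.03e-05) and was higher by 0.64 at 600 than at 500 mOsm (edgeR adjusted p = 0.000132). Apaf1, the scaffold of the apoptosome, did the reverse, rising by 0.42 at 500 mOsm (edgeR adjusted p = 0.00211) and falling by 0.33 from 500 to 600 mOsm (edgeR adjusted p = 0.0115). That fall was lost without 600 mOsm replicate 3 (edgeR adjusted p = 0.0523) and under the composition correction (-0.13, edgeR adjusted p = 0.181). Dffb, the nuclease that cuts DNA in apoptosis, fell by 0.75 at 500 mOsm (edgeR adjusted p = 0.00103) and by 0.67 at 600 mOsm (edgeR adjusted p = 0.00217). The inhibitor Birc3 fell by 0.63 at 500 mOsm (edgeR adjusted p = 0.000589) and by 0.59 at 600 mOsm (edgeR adjusted p = 0.00101). Its relative Birc2 was also lower than control at both intensities, by 0.67 at 500 mOsm (edgeR adjusted p = 0.000305) and by 0.36 at 600 mOsm (edgeR adjusted p = 0.0158), the latter lost without control replicate 1 or 3 or 600 mOsm replicate 1 (adjusted p from 0.0501 to 0.0622). Between the stressed groups Birc2 was higher by 0.31 at 600 than at 500 mOsm (edgeR adjusted p = 0.0429), a call lost in 9 of 19 alternatives, among them without 500 mOsm replicate 2 or 3 (adjusted p = 0.123 and 0.0520) or any 600 mOsm library (0.0693 to 0.0940).

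Of 14 death receptor genes 9 were tested. Cflar, which encodes the caspase-8 inhibitor c-FLIP, was the one most changed between the intensities. Its libraries read 2.56, 2.50 and 2.59 FPKM in control, 4.17, 3.64 and 4.07 FPKM at 500 mOsm, and 1.65, 1.64 and 1.54 FPKM at 600 mOsm. Cflar thus rose by 0.64 at 500 mOsm (SE 0.07, edgeR adjusted p = 3.19e-05), fell by 0.64 at 600 mOsm (SE 0.08, edgeR adjusted p = 5.2e-05) and differed by -1.28 between them (edgeR adjusted p = 1.19e-07), with no overlap of groups. The adaptor Traf2 rose by 0.66 at 500 mOsm (edgeR adjusted p = 6.38e-07) and by 0.24 at 600 mOsm (edgeR adjusted p = 0.0023), and was lower by 0.41 at 600 than at 500 mOsm (edgeR adjusted p = 4.23e-05). The receptors Tnfrsf10b and Tnfrsf1a fell at 500 mOsm by 0.35 and 0.25 (edgeR adjusted p = 0.000503 and 0.000737). Tnfrsf10b fell by 0.20 at 600 mOsm (edgeR adjusted p = 0.0148), lost without control replicate 3 (0.0555) or 600 mOsm replicate 3 (0.0550). Tnfrsf1a also fell at 600 mOsm, by 0.17 (edgeR adjusted p = 0.00816), a call lost with no filter on low counts (0.0531). Fadd was higher by 0.44 at 600 than at 500 mOsm (edgeR adjusted p = 0.00847), and Casp8 was higher by 0.31 at 600 mOsm than in control (edgeR adjusted p = 0.0174), lost without control replicate 1 (0.0568). In all, 1 gene of this list was higher and 2 lower between 600 and 500 mOsm (11.1% and 22.2%, beside 11.9% and 17.2% of all genes tested). Against control 3 were higher and 2 lower at 500 mOsm (33.3% and 22.2%, beside 13.2% and 14.8%) and 2 and 3 at 600 mOsm (22.2% and 33.3%, beside 15.1% and 20.0%).

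Of the transcription factors known to act on Bcl2 family genes, 11 were tested. At 600 mOsm 7 were lower and 1 higher than at 500 mOsm (63.6% and 9.09%, beside 17.2% and 11.9% of all genes tested), and 4 were lower and 1 higher than in control (36.4% and 9.09%, beside 20.0% and 15.1%). The median log2 fold change of the 11 was -0.24 between 600 and 500 mOsm, beside 0.01 for all genes tested. Foxo1 and Foxo3, whose proteins activate Bcl2l11 transcription in many cells, fell at 500 mOsm by 0.64 (edgeR adjusted p = 0.00215) and 0.55 (edgeR adjusted p = 0.000204). At 600 mOsm Foxo1 fell by 1.10 (edgeR adjusted p = 4.67e-05) and Foxo3 fell by 0.90 (edgeR adjusted p = 4.32e-06). Bcl2l11 itself was below control in every library at 600 mOsm and above every control library in 2 of 3 at 500 mOsm. Ddit3, which encodes CHOP, a stress factor known to repress Bcl2 and to activate Bcl2l11, was at 7.93 to 10.3 FPKM in control, 8.40 to 8.88 FPKM at 500 mOsm and 13.8 to 15.3 FPKM at 600 mOsm. It was higher by 0.70 at 600 mOsm than in control (SE 0.10, edgeR adjusted p = 0.000253) and by 0.76 than at 500 mOsm (edgeR adjusted p = 0.000143). Every 600 mOsm library of Ddit3 was above the other 6.

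Myc, a growth regulator that sensitises cells to apoptosis, fell by 1.42 at 600 mOsm against control (SE 0.06, edgeR adjusted p = 4.99e-09) and by 1.46 against 500 mOsm (edgeR adjusted p = 2.15e-09), with 126 to 133 FPKM in control and 46.7 to 48.7 FPKM at 600 mOsm. Nfat5, which encodes TonEBP, the main factor of the osmotic response, was lower by 1.21 at 600 than at 500 mOsm (edgeR adjusted p = 6.63e-05) and fell by 0.90 against control (edgeR adjusted p = 0.000609). Jun rose by 0.75 at 500 mOsm (edgeR adjusted p = 3.52e-06). Atf4 rose by 0.24 there (edgeR adjusted p = 0.00143), a call lost under the composition correction (0.07, edgeR adjusted p = 0.264). At 500 mOsm against control 2 genes of the list were higher and 2 lower (18.2% each, beside 13.2% and 14.8%).

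**Figure D5:**
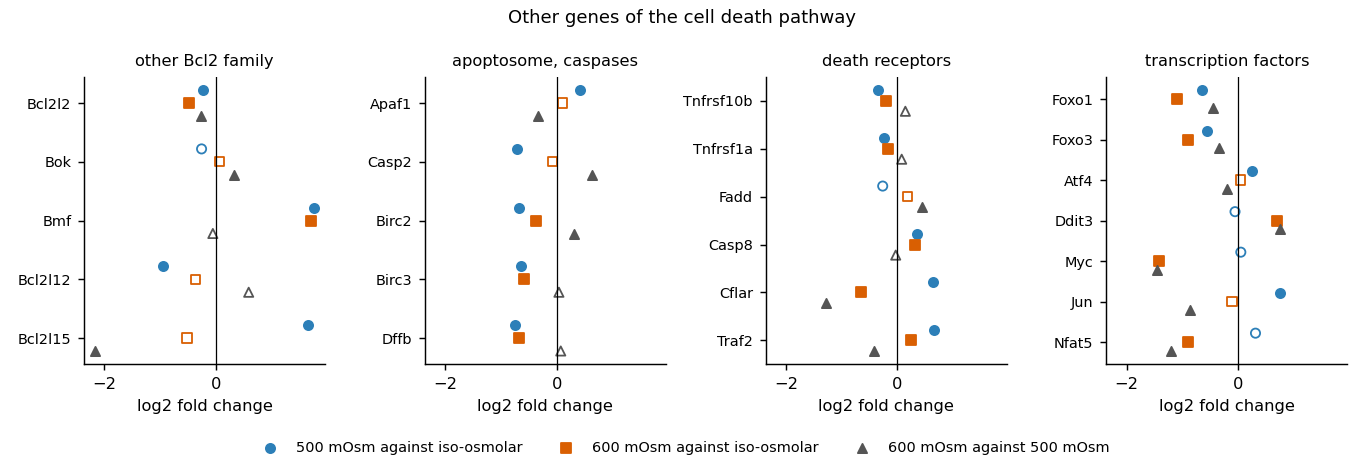
Log2 fold changes of the genes named from 4 lists of the cell death pathway (panels) in the 3 comparisons, with circles for 500 mOsm and squares for 600 mOsm against iso-osmolar and triangles for 600 against 500 mOsm. Filled symbols passed an adjusted p of 0.05 and open ones did not. Cflar lies at 0.64 at 500 mOsm and -0.64 at 600 mOsm, and Myc lies at -1.42 at 600 mOsm.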

How the data were processed

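RNA of 9 MEF libraries, 3 per treatment, was sequenced as paired-end reads and aligned to mm10. The submitters' processing notes name STAR and CASAVA 1.8, and the counting tool, its strand setting and the annotation release are not given in the sources used here. The authors deposited raw read counts per gene and FPKM, which equal the counts divided by the gene length and the library total. The deposited fold changes and p-values were not used. Tests were run on TMM-scaled counts in R 4.3.3 with edgeR 4.0.16 (filterByExpr, quasi-likelihood test, treatment as factor, all 9 libraries in 1 fit, Benjamini-Hochberg over 13082 genes, threshold 0.05). The common biological coefficient of variation was 0.0756. Scripts were tested on simulated data.

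Members and gene lists were chosen with earlier results of these data known. All 10 members are named. From each of 5 other lists (76 genes, 61 tested) up to 2 genes per direction with the largest change among those passing were named in each comparison, and for the 3 members with the smallest adjusted p the 3 genes most like them. Motifs were searched in RefSeq promoters of GRCm38.p6, and exon overlaps in GENCODE vM21. Alternatives were RLE factors or library size alone, no filter or at least 10 counts in every library, DESeq2 1.42.0, a fit of 2 groups at a time, a block for the replicate number, limma 3.58.1 on log2 FPKM with 1 or 0.1 added, an adjusted p under 0.01, each library left out, and, chosen after seeing the data, a GC content and length correction.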

Additional observations from a re-analysis of the deposited data

How the results depend on the processing

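Of 513 alternative values of the members' fold changes, 482 kept their direction and side of the threshold, 20 lost a call, 6 gained one and 5 changed sign. The number of members called between 500 mOsm and control was 5 with the GC content and length correction, against 3, when 5114 of 13022 genes passed, and every other count stayed within 1.5 times the value reported. Leaving out 1 library gave 5 to 6 members between 600 and 500 mOsm, 2 to 4 for 500 mOsm and 4 to 5 for 600 mOsm against control. The changes of sign were those of Bax between 600 and 500 mOsm without 500 mOsm replicate 3 (-0.0082) or 600 mOsm replicate 3 (-0.0262, and up to 0.127 without 500 mOsm replicate 2), of Bax with the correction against control (-0.149 at 500 mOsm, -0.093 at 600 mOsm) and of Bad with it at 500 mOsm (-0.0052, in place of 0.20). Their cause was not tested. With the correction Bid between 600 and 500 mOsm passed (0.16, edgeR adjusted p = 0.0383). Adding 1 to the FPKM shrank the changes of low genes by construction, to -0.73 for Bcl2l11 and 0.67 for Bbc3 between 600 and 500 mOsm.

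On average the replicate numbers did not pair the libraries. Deviations of libraries with the same number correlated at -0.23 on average over 9 pairs (range -0.65 to 0.57). For different numbers the average was 0.12 (-0.32 to 0.57). Deviations within a group sum to 0, so these averages are not independent. In both other groups at once, 0 of 9 libraries correlated best with their own number. With the replicate block 5, 2 and 5 members were called, and Bak1 between 600 and 500 mOsm (edgeR adjusted p = 0.0816) and Bid at 500 mOsm (edgeR adjusted p = 0.0537) were the calls lost. Of 60 calls on other genes named, all kept their direction in 1136 alternative values and 18 were lost in at least 1. Low counts limit the precision of the folds of Bbc3 (28 to 115 counts), Pmaip1 (0 to 18) and, at 600 mOsm, Bcl2l11 (49 to 65).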

Other observations

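Genes whose proteins control the stability or activity of Bcl2 family proteins were also read. Of 15 tested, 1 passed as higher and 4 as lower between 600 and 500 mOsm (6.67% and 26.7%, beside 11.9% and 17.2% of all genes tested). Against control the numbers were 2 and 2 at 500 mOsm (13.3% each, beside 13.2% and 14.8%). At 600 mOsm they were 0 and 5 (33.3% lower, beside 15.1% higher and 20.0% lower of all genes) by edgeR, DESeq2 and limma alike, and 1 and 5 at an unadjusted p under 0.05. Fbxw7, part of a ubiquitin ligase that targets the Mcl1 protein, was at 2.29, 2.17 and 2.56 FPKM in control, 1.16, 1.12 and 0.811 FPKM at 500 mOsm, and 1.25, 1.49 and 1.48 FPKM at 600 mOsm. It fell by 1.18 at 500 mOsm (edgeR adjusted p = 3.85e-05) and by 0.71 at 600 mOsm (edgeR adjusted p = 0.00164), and was higher by 0.47 at 600 than at 500 mOsm (edgeR adjusted p = 0.0307), a call lost without 500 mOsm replicate 3 (0.104), 600 mOsm replicate 2 (0.0659) or 600 mOsm replicate 3 (0.102). Pim1, a kinase that inactivates the Bad protein, rose from 10.2 to 11.5 FPKM in control to 25.5 to 27.3 FPKM at 500 mOsm (log2 fold change 1.31, edgeR adjusted p = 2.78e-06) and was lower by 1.23 at 600 than at 500 mOsm (edgeR adjusted p = 6.28e-06). Its relative Pim3 rose by 0.41 at 500 mOsm (edgeR adjusted p = 0.00163) and was lower by 0.48 at 600 than at 500 mOsm (edgeR adjusted p = 0.00066). Dynll2, a light chain that holds Bmf, fell by 0.51 at 600 mOsm against control (edgeR adjusted p = 4.72e-05). Ywhaz, a 14-3-3 protein that holds phosphorylated Bad, was lower by 0.20 at 500 mOsm (edgeR adjusted p = 0.0269), a call lost without control replicate 1 (0.107) and without 500 mOsm replicate 1 (0.103) or 2 (0.0836).

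Among 11176 genes with at least 1 CPM on average, those whose log2 CPM most resembled a member's over the 9 libraries were, for Bcl2l11, Isoc1, Yap1 and Pacsin2 (Pearson r = 0.986, 0.985 and 0.984). For Mcl1 they were Naf1, Crtc3 and Taf4a (r = 0.992, 0.982 and 0.981), and for Bbc3 they were Mogs, Ppcs and Col7a1 (r = 0.984, 0.983 and 0.983). These values describe libraries in 3 groups that share treatment and were given no test.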
